A study of Mus musculus with 3 samples.

Results

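The Tcf and Lef family of transcription factors comprises 4 genes in the mouse, Lef1, Tcf7, Tcf7l1 and Tcf7l2, and these 4 were selected by symbol from the 32285 genes counted in 3 single-cell libraries of intestinal organoids. All 4 were found once each by their identifiers, which were ENSMUSG00000027985 for Lef1, ENSMUSG00000000782 for Tcf7, ENSMUSG00000055799 for Tcf7l1 and ENSMUSG00000024985 for Tcf7l2. Each had at least 10 UMIs in 1 or more of the libraries compared, so no member was lost to a filter on low values. A UMI (unique molecular identifier) stands for 1 captured RNA molecule.

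The 4 proteins bind the same short DNA motif through a high mobility group box and carry a β-catenin binding domain at the amino end. Without β-catenin they recruit Groucho/TLE corepressors to Wnt target genes, and when Apc is lost and β-catenin builds up they recruit its coactivators to the same genes. Tcf7l2 (Tcf4) is the member on which the stem cells of the normal intestinal crypt depend, Tcf7l1 (Tcf3) acts mainly as a repressor, and Tcf7 (Tcf1) and Lef1, best known from T lymphocytes, are themselves Wnt target genes in many tissues.

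The organoids were epithelial structures grown in a gel from the small intestine of C57BL/6 mice and were taken at passage 3, day 6. Mice were 7 to 8 weeks old at tamoxifen, which was given in all 3 groups as 2 doses of 2 mg. The groups were WT, at 21 days after tamoxifen, LApc (Lgr5-CreERT2;Apc fl/fl), at 29 days, and LApcL, which carried Lef1 fl/fl beside the Cre and Apc alleles of LApc, at 21 days. The Cre is driven by Lgr5, a gene of intestinal stem cells, so recombination started in those cells and their progeny, and the comparison of LApcL with LApc asks what the added deletion of Lef1 changes.

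Each group had 1 library, so no test between groups was possible and the spread between mice or cultures is unknown. LApc also differed from the other two groups in days after tamoxifen, and genotype and time cannot be told apart there. The intervals given below are exact 95% intervals that cover counting error only. The 3 libraries held 11411 (WT), 10706 (LApc) and 12068 (LApcL) barcodes, of which 3195 were present in all 3 libraries. In these shared barcodes the log UMI totals of the same barcode correlated between libraries with Pearson's r of 0.990 to 0.992. Whether these are the same droplets or reads carried over from another library was not tested, so it is not known whose cells they stand for, and they were kept apart in everything that follows.

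Deep barcodes were those found in 1 library only, with at least 10000 UMIs and at most 20% of UMIs from mitochondrial genes. They numbered 1208 in WT, 2161 in LApc and 1931 in LApcL, with 48895147, 90864428 and 80504226 UMIs in all. Their median depths were 38074, 34377 and 32584 UMIs. The shared barcodes were shallow, with medians of 2176, 1483 and 1609 UMIs. Levels are in CPM, the UMIs of a gene per 1000000 UMIs of the barcodes summed.

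The tissue label was checked against marker genes. Epcam, the epithelial adhesion molecule, stood in deep barcodes at 1192 CPM (WT), 1565 CPM (LApc) and 1967 CPM (LApcL), and in shared barcodes at 2.81, 9.18 and 14.8 CPM. Vil1, which encodes the brush border protein villin, was at 220, 106 and 140 CPM in deep barcodes and at 3.54, 1.80 and 2.33 CPM in shared ones. The endothelial genes Pecam1 (1076, 1061 and 1050 CPM) and Cdh5 (611, 628 and 601 CPM) had the opposite pattern, with at most 1.60 CPM of Pecam1 and 4.77 CPM of Cdh5 in deep barcodes. The deep barcodes thus carried the markers of the labelled epithelium, whereas the shared barcodes carried those of endothelium and nearly lacked the epithelial ones.

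Because Lef1 and Tcf7 are lymphocyte genes, lymphocyte markers were measured beside them. The 7 markers of T or innate lymphoid cells summed to 1.92 CPM in WT, 0.352 CPM in LApc and 0.435 CPM in LApcL deep barcodes. Trac, the T cell receptor alpha constant chain, gave 85 UMIs in WT, where Cd3g, Il7r and Ptprc were at 0. The 4 B cell markers summed to 0.307, 1.64 and 2.86 CPM. Trac made up most of the WT sum. Cd247, the next of the list there, ran the other way, at 0.143 CPM (WT), 0.198 CPM (LApc) and 0.298 CPM (LApcL), and the other five T or innate lymphoid markers gave at most 2 UMIs each in any library. The part of lymphocytes in the levels of Lef1 and Tcf7 was not tested.

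In the mm10 (GRCm38) gene models, Lef1 lies on the plus strand at chr3:131110471-131224356, Tcf7 on the minus strand at chr11:52252371-52283014, Tcf7l1 on the minus strand at chr6:72626378-72789254 and Tcf7l2 on the plus strand at chr19:55741820-55933654. The annotation lists 8 transcripts of Lef1, 2 of Tcf7, 5 of Tcf7l1 and 22 of Tcf7l2, of which 4, 2, 3 and 12 code for protein. The libraries count 3′ ends, so UMIs of full-length transcripts and of those begun at an internal promoter, which lack the β-catenin binding domain, were summed into 1 value per gene. For Lef1 the last exon, where most 3′ reads fall in such libraries, is chr3:131223076-131224356.

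RefSeq (GRCm38.p6) gives 9 start windows for the 4 genes, each of 300 bases, from 250 before to 50 after the start of a transcript. Lef1 has 4 of them, Tcf7 and Tcf7l2 have 2 each and Tcf7l1 has 1. The family's core motif was sought only in the form CTTTGA, on both strands (TCAAAG on the other), and matches of this form stand in capitals in the sequences below. This form occurred in 16% of all 32851 windows, and in at least 1 window of 18.2% of 27025 genes. Of the 9 windows of the family, 1 held it: the window of the last Lef1 start, inside the gene, with 2 matches at -180 and -120 bases from that start, both on the minus strand. The first start window of each gene is shown with the Lef1 window that holds the motif. First means the first start that RefSeq lists, and whether RNA of a gene begins further upstream was not tested. RNA from the other 4 starts is counted too. All read 5′ to 3′ on the strand of the gene.
Lef1, first start, plus strand, chr3:131110047-131110346: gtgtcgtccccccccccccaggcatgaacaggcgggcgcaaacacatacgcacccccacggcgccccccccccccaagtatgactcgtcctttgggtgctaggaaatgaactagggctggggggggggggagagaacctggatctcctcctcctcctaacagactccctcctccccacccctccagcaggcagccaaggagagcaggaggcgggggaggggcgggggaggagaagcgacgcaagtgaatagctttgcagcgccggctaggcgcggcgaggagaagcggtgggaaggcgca
Lef1, internal start, plus strand, chr3:131156044-131156343: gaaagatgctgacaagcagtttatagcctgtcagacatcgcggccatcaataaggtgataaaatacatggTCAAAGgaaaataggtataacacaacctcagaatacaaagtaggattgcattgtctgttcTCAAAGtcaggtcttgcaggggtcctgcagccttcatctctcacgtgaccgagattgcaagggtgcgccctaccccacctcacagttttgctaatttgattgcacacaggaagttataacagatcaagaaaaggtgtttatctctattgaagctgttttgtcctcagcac
Tcf7, first start, minus strand, chr11:52282965-52283264: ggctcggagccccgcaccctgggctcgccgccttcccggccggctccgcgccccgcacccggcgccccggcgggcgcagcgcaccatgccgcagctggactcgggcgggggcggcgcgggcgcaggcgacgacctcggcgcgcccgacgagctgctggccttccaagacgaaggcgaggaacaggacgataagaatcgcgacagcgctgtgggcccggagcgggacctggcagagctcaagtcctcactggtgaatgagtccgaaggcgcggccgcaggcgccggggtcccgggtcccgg
Tcf7l1, minus strand, chr6:72788996-72789295: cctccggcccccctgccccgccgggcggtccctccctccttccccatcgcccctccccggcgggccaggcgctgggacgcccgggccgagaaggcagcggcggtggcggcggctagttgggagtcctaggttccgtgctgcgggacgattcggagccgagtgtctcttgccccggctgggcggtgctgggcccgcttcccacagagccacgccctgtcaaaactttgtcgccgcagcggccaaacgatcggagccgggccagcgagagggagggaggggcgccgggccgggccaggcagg
Tcf7l2, first start, plus strand, chr19:55741560-55741859: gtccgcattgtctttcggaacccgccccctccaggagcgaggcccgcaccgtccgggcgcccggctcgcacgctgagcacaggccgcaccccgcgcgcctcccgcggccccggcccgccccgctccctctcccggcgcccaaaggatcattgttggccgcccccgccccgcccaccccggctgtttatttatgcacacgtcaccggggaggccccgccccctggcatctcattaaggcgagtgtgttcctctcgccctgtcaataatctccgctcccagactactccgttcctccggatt
The internal Lef1 window had 43.7% G and C, and the 4 first-start windows had 67.3%, 76.3%, 75.3% and 70.0% in the order shown. A match of these letters is a description of the sequence and not a bound site. The absence of the 6 letters from a window of this length says nothing about other forms of the motif or about binding elsewhere.

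Lef1, the gene to be deleted in LApcL, was nearly absent from WT organoids and abundant in both Apc-deleted libraries. WT deep barcodes gave 47 UMIs, a level of 0.961 CPM with an interval of 0.706 to 1.28. LApc gave 6539 UMIs and 72.0 CPM (70.2 to 73.7), and the library labelled LApcL gave 3850 UMIs and 47.8 CPM (46.3 to 49.4). The intervals of the 3 libraries did not overlap. The level in LApcL thus lay below LApc and far above WT. Counts of 3′ ends do not tell a transcript of the deleted allele from an intact one unless the deleted exons include the 3′ end, and the positions of the floxed exons were not used here. The Lef1 count therefore neither checks the deletion nor goes against the label, and cells that kept an intact allele cannot be told apart from cells with a shortened transcript. The authors state that they verified the Lef1 deletion before their analysis of the LApc and LApcL organoids.

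At equal depth, with every deep barcode thinned to 10000 UMIs, a Lef1 UMI was found in 8 of 1208 WT cells (0.662%), in 981 of 2161 LApc cells (45.4%, 43.3 to 47.5%) and in 675 of 1931 LApcL cells (35.0%, 32.8 to 37.1%). Without thinning the shares were 2.90%, 72.2% and 65.6%. Many LApc cells held several molecules. At least 3 Lef1 UMIs were left after thinning in 206 LApc cells, with 10 in the highest cell, and in 88 LApcL cells, with 9 in the highest. No WT cell reached 3. In the shared, endothelial-marker barcodes of the same files, thinned to 500 UMIs, a Lef1 UMI was found in 0 of 3195 in WT, where a limit of 3 counts allows a share of up to 0.0939%, and in 1 of 3195 in each of LApc and LApcL. Whether those barcodes were droplets of these suspensions is not known, so they do not measure the free RNA of the organoids. Deep barcodes at that depth would give 0.0498%, 3.96% and 2.71%.

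**Figure D1:**
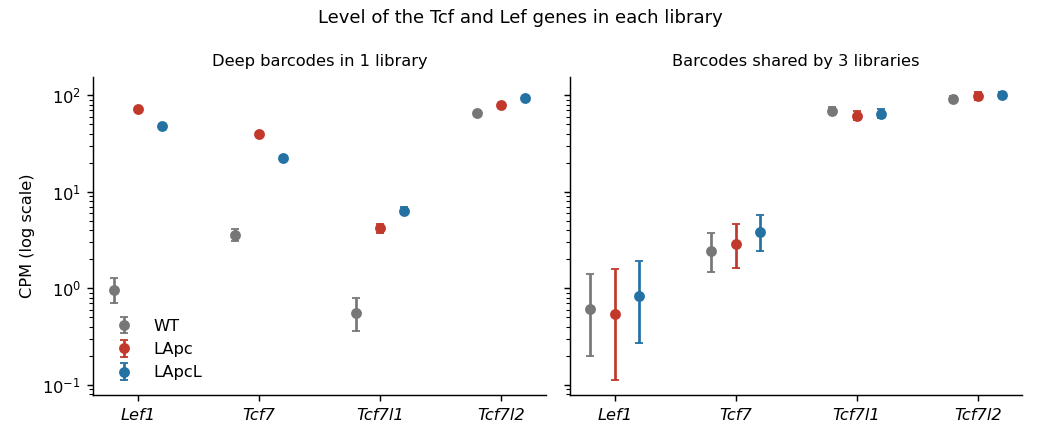
Level of each member in deep barcodes and in barcodes shared by all 3 libraries, in CPM on a log axis, with 1 point per library and exact 95% Poisson intervals as bars. Lef1 stands at 0.961, 72.0 and 47.8 CPM in the deep barcodes of WT, LApc and LApcL and below 1 CPM in all shared ones, whereas Tcf7l1 stands between 61.4 and 69.6 CPM in the shared barcodes and at most at 6.38 CPM in the deep ones.

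The difference in Lef1 between LApc and LApcL held within depth but not in all barcodes. Deep barcodes were put into 4 equal groups by depth, and from the shallowest to the deepest group Lef1 was at 99.3, 99.7, 73.6 and 54.2 CPM in LApc and at 65.1, 70.1, 51.2 and 35.6 CPM in LApcL. LApc was the higher in all 4 groups, and in both libraries the deepest group had the lowest level. In the barcodes outside both populations, 5350 in LApc and 6942 in LApcL with medians of 2946 and 2718 UMIs, the order was turned, with 40.1 CPM in LApc and 59.2 CPM in LApcL.

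The turned order was found in each class of those barcodes present in 1 library. Barcodes of at least 10000 UMIs over the mitochondrial limit had 26.1 CPM of Lef1 in LApc and 61.2 CPM in LApcL. Those of 5000 to 9999 UMIs had 47.4 and 65.5 CPM, those of 2000 to 4999 UMIs 42.6 and 58.5 CPM, and those under 2000 UMIs 31.8 and 44.3 CPM. LApcL was the higher in all of them, though under 2000 UMIs the intervals overlapped, at 24.55 to 40.55 CPM in LApc and 36.79 to 52.81 CPM in LApcL. The few barcodes found in 2 libraries had the order of the deep ones, at 75.6 CPM in LApc (50 barcodes) and 33.8 CPM in LApcL (104 barcodes). Mitochondrial genes took at most 20% of the UMIs of any deep barcode. Over the 4 classes found in 1 library they took from 27.8% to 43.1% in LApc and from 21.9% to 41.0% in LApcL. Their part in the turned order was not tested. With all barcodes found in 1 library summed, a setting added after the data were seen, Lef1 was still lower in LApcL, by a log2 ratio of -0.37 against -0.58 in deep barcodes.

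Tcf7 followed Lef1 at a lower level. Its deep barcodes gave 3.60 CPM in WT (176 UMIs), 39.8 CPM in LApc (3618 UMIs) and 22.6 CPM in LApcL (1823 UMIs). The share of cells with a Tcf7 UMI at equal depth was 3.06%, 28.1% and 20.2%, and 12.8%, 60.8% and 51.7% without thinning. As with Lef1, LApc was the highest library and WT the lowest, but WT was not near 0. At least 3 Tcf7 UMIs remained after thinning in 53 LApc cells and in 4 LApcL cells. Outside the deep barcodes Tcf7 was at 3.22 CPM in WT, 28.8 CPM in LApc and 22.9 CPM in LApcL. By class, Tcf7 was at 34.2 CPM in LApc and 24.1 CPM in LApcL at 5000 to 9999 UMIs, where the intervals did not overlap. They overlapped in the other three classes, at 30.3 and 24.3 CPM for 2000 to 4999 UMIs, 21.2 and 21.6 CPM over the mitochondrial limit, and 14.2 and 17.6 CPM under 2000 UMIs. In the gene models the lincRNA Gm26551, which was not among the genes counted, lies on the same strand over the last exon of Tcf7, and its reads cannot be told apart from those of Tcf7.

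Tcf7l1 was the rarest member in epithelial cells. WT deep barcodes gave 27 UMIs (0.552 CPM), LApc gave 382 (4.20 CPM) and LApcL gave 514 (6.38 CPM). A Tcf7l1 UMI was found at equal depth in 0.662%, 4.12% and 7.51% of cells, and unthinned in 2.24%, 13.7% and 20.3%. Here LApcL and not LApc was the highest, the opposite of Lef1 and Tcf7. Barcodes outside both populations had the same order in sum, at 0.399, 3.61 and 8.03 CPM, but those under 2000 UMIs in 1 library had 2.94 CPM in LApc and 2.88 CPM in LApcL.

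Tcf7l2 was the member that all 3 libraries shared. It was at 64.9 CPM in WT (3175 UMIs), 80.0 CPM in LApc (7273 UMIs) and 94.7 CPM in LApcL (7625 UMIs). A UMI was found in 44.6%, 53.5% and 58.4% of cells at equal depth, and in 81.9%, 86.2% and 87.7% unthinned. These differences were small beside those of the other members. Outside the deep barcodes WT had the most Tcf7l2, at 118.5 CPM, against 67.1 CPM in LApc and 70.0 CPM in LApcL.

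**Figure D2:**
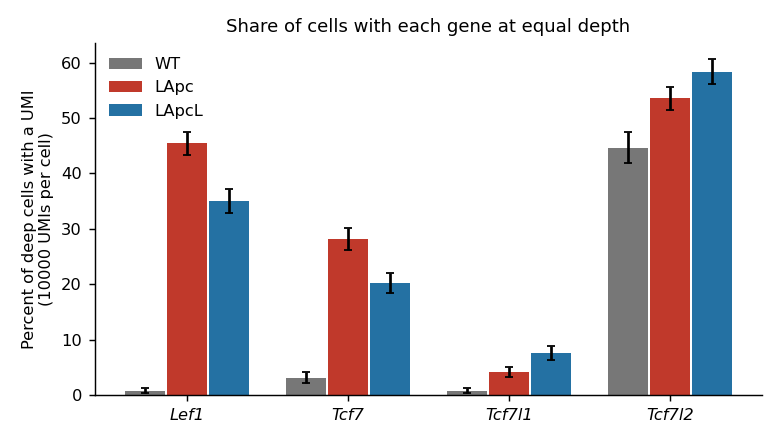
Share of deep barcodes with at least 1 UMI of each member after thinning to 10000 UMIs, in percent from 0, with 1 bar per library and exact 95% Clopper-Pearson intervals. Lef1 goes from 0.662% in WT to 45.4% in LApc and 35.0% in LApcL, Tcf7l1 is highest in LApcL at 7.51%, and Tcf7l2 is found in 44.6% to 58.4% of cells in all 3 libraries.

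LApc against WT asks what the loss of Apc changes. The log2 ratios, of CPM + 1 against CPM + 1, were 5.22 for Lef1 (5.0 to 5.42), 3.15 for Tcf7 (2.97 to 3.33) and 1.75 for Tcf7l1 (1.5 to 1.96). Of the 4 members, 3 were thus at least 2-fold higher, beside 19.6% of all 17091 genes measured in that comparison, and 0 of 4 were 2-fold lower, beside 8.13%. The call of Tcf7l1 was lost with a pseudocount of 10 CPM, which gave 0.43. Without the pseudocount the CPM ratios were 74.9, 11.1 and 7.61. Lef1 stood at percentile 99.6 of all genes. Tcf7l2 had a log2 ratio of 0.30 (0.24 to 0.36), at percentile 49.6, and this small value flipped to -0.14 with median-of-ratios scaling of the libraries and to -0.14 with all barcodes found in 1 library.

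LApcL against LApc asks what the deletion of Lef1 adds. Lef1 had a log2 ratio of -0.58 (-0.64 to -0.52) and Tcf7 one of -0.79 (-0.87 to -0.71), which are CPM ratios of 0.665 and 0.569. Tcf7l1 was higher in LApcL by 0.50 (0.34 to 0.67) and Tcf7l2 by 0.24 (0.19 to 0.29) on the log2 scale. None of the 4 members was past 2-fold in either direction, beside 1.32% of 16558 genes that were 2-fold higher and 3.92% that were 2-fold lower. The targeted gene thus differed between these libraries by less than Tcf7 did, and both were lower in LApcL in deep barcodes.

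LApcL against WT gave log2 ratios of 4.64 for Lef1, 2.36 for Tcf7, 2.25 for Tcf7l1 and 0.54 for Tcf7l2. Again 3 of 4 members were at least 2-fold higher, beside 20.9% of 16387 genes, and 0 of 4 were 2-fold lower, beside 9.26%. Tcf7l1 lost its call here too with a pseudocount of 10 CPM, at 0.64 (log2). The CPM ratios were 49.8, 6.29, 11.6 and 1.46. This comparison and LApc against WT share the WT library, so their likeness is no independent result.

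Most genes were not centred on 0 in the WT comparisons. The median log2 ratio of all genes was 0.31 for LApc against WT and 0.29 for LApcL against WT, and it moved to 0.05 and 0.01 with median-of-ratios scaling. Relative to the all-gene median, LApc against WT was 4.91 for Lef1, 2.84 for Tcf7, 1.44 for Tcf7l1 and -0.01 for Tcf7l2. LApcL against WT was 4.34, 2.07, 1.96 and 0.24 in the same order. With median-of-ratios scaling the relative value of Tcf7l2 in LApc was -0.19, so no direction can be given for it. In LApcL against WT the log2 ratio of Tcf7l2 was 0.09 with that scaling (0.07 relative to all genes) and 0.06 with all barcodes found in 1 library.

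The WT library also differed in cell makeup. The 6 enterocyte markers, with Fabp1, an absorptive fatty acid binding protein, at 9137 CPM, summed to 20540 CPM in WT and to 2.88 and 5.91 CPM in LApc and LApcL. Over whole libraries, a change of cell types and a change within a type cannot be told apart.

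The makeup of the family is the share of the UMIs of all 4 members that each one gives. In WT deep barcodes Tcf7l2 gave 92.7% of the family's UMIs, Tcf7 5.14%, Lef1 1.37% and Tcf7l1 0.788%. In LApc Tcf7l2 gave 40.8%, Lef1 36.7%, Tcf7 20.3% and Tcf7l1 2.15%, and the family summed to 196 CPM against 70.1 CPM in WT. In LApcL the shares were 55.2%, 27.9%, 13.2% and 3.72% of 172 CPM. The WT epithelium thus had mostly 1 family member in its RNA, and both Apc-deleted libraries had a mixture in which Tcf7l2 was still the largest share of the sum. In LApc this order changed with depth. From the shallowest to the deepest of the 4 depth groups, Tcf7l2 was at 97.75, 87.7, 81.3 and 72.3 CPM and Lef1 at 99.3, 99.7, 73.6 and 54.2 CPM.

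**Figure D3:**
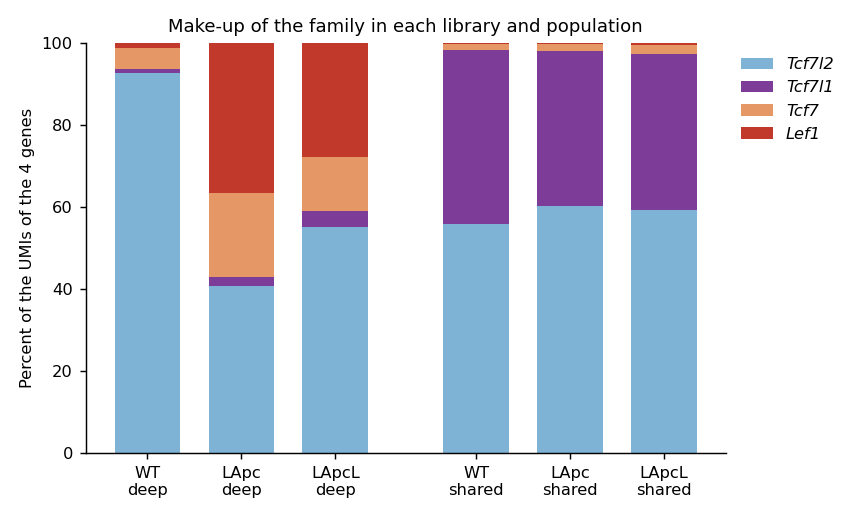
Share of the family's UMIs given by each of the 4 members, in percent, as 1 stacked bar per library for deep and for shared barcodes. Tcf7l2 makes up 92.7% of the deep WT bar, 40.8% of the LApc bar and 55.2% of the LApcL bar, and the shared bars hold almost only Tcf7l1 and Tcf7l2.

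Cells were then described by how many of the 4 members they showed at 10000 UMIs. No member was found in 53.3% of WT cells, 20.5% of LApc cells and 21.9% of LApcL cells. Exactly 1 member was found in 44.4%, 38.5% and 42.1%, and 2 members in 2.32%, 31.1% and 29.4%. All 4 were found in 0 WT, 13 LApc and 6 LApcL cells. WT cells therefore showed at most 2 members, and 3 members together were seen in 9.39% of LApc and 6.32% of LApcL cells. A member at a low level is missed in many cells at this depth, so these are counts of detection and not of cells that express a gene.

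For each of the 6 pairs, the number of cells with both genes was set beside the number that the product of their shares gives. Lef1 and Tcf7 were found together in 338 LApc cells against a product of 276, a ratio of 1.23. In LApcL the same pair was found in 135 cells against 136, a ratio of 0.990. Put as shares, Tcf7 was found in 34.5% of LApc cells with Lef1 and 22.9% of those without, and in 20.0% and 20.3% in LApcL. The excess of the pair was thus seen in LApc and not in LApcL, and over the other depths and cell filters the ratio was 1.15 to 1.22 in LApc and 0.931 to 0.992 in LApcL. The difference between the libraries has no replicate and was not tested.

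Lef1 and Tcf7l2 occurred together slightly more often than the product in both libraries, in 573 LApc cells against 525 and in 433 LApcL cells against 394. Lef1 and Tcf7l1 were together in 50 LApc cells against 40.4 and in 64 LApcL cells against 50.7, ratios of 1.24 and 1.26 on small numbers. Among the pairs without Lef1, Tcf7 and Tcf7l1 were together in 32 LApc cells against 25.0 and in 32 LApcL cells against 29.3, and the pairs with Tcf7l2 lay closest to the product. Tcf7 and Tcf7l2 were together in 318 LApc cells against 326 and in 219 LApcL cells against 228, and Tcf7l1 and Tcf7l2 in 47 against 47.7 and in 86 against 84.6. In WT only Tcf7 and Tcf7l2 gave a usable number, 20 cells against 16.5. Under other settings the rarer pairs moved more. Tcf7l1 with Tcf7l2 had ratios of 1.49 in LApc and 0.752 in LApcL at 5000 UMIs, and Tcf7 with Tcf7l1 one of 0.653 in LApcL at a 10% mitochondrial limit. Lef1 with Tcf7l1 ran from 1.15 to 1.29 in LApc and from 1.06, at that limit, to 1.41 in LApcL. Lef1 with Tcf7l2 ran from 1.02 to 1.08 in LApc and from 1.01 to 1.175 in LApcL, lowest in both at 20000 UMIs. Cells of unequal type and RNA content were pooled in these counts, and the ratios are weak and given as descriptions.

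**Figure D4:**
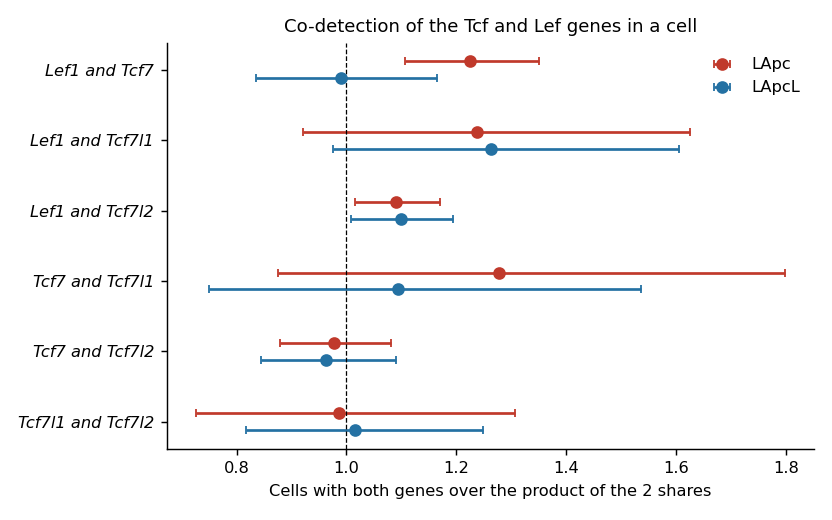
Number of deep barcodes with both members of a pair, divided by the number that the product of the single shares gives, for the 6 pairs in LApc and LApcL at 10000 UMIs, with the exact 95% interval of the share with both, divided by the same product, as bars and a dashed line at 1. Lef1 with Tcf7 is at 1.23 in LApc and 0.990 in LApcL, and the pairs of Tcf7l2 with Tcf7 or Tcf7l1 are close to 1 in both at this depth.

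Deep barcodes were split by whether they held a UMI of a marker gene at 10000 UMIs. Mki67 marks cycling cells, and Lef1 was lower in them in both Apc-deleted libraries. In LApc 30.8% of Mki67-positive cells and 50.3% of the rest had a Lef1 UMI, at 42.8 and 85.4 CPM. In LApcL the shares were 29.8% and 38.9%, at 37.6 and 59.1 CPM. In WT Lef1 was at 1.33 CPM (0.772 to 2.12) in Mki67-positive cells and 0.832 CPM (0.561 to 1.19) in the rest, and the intervals overlapped. Mki67-positive cells were also deeper, with a median of 47520 UMIs against 32191 in LApc and 40561 against 29071 in LApcL. The part of depth in the difference of levels was not tested. The shares were taken at equal depth.

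Prox1, a homeobox gene and Wnt target in intestinal tumours, was set beside all 4 members. A Lef1 UMI was found in 57.4% of Prox1-positive LApc cells and 20.1% of the others, at 101.0 and 24.8 CPM. In LApcL the shares were 37.3% and 32.1%, at 51.6 and 43.7 CPM. For Tcf7 the levels were 53.1 and 18.2 CPM in LApc and 24.2 and 21.0 CPM in LApcL. For Tcf7l1 they were 6.28 and 0.838 CPM in LApc and 8.33 and 4.28 CPM in LApcL. For Tcf7l2 they were 88.4 and 66.5 CPM in LApc and 101.4 and 87.5 CPM in LApcL. All 4 members were thus higher beside Prox1 in both libraries, and the gap was narrower for each in LApcL. Prox1 itself was lower in LApcL, at 152.5 CPM against 426.4 CPM in LApc. It was found in 67.8% of LApc and 55.5% of LApcL cells at 10000 UMIs, and in 78.85% and 79.75% unthinned. Thinning thus moved more LApcL cells to the group without Prox1, and its part in the narrower gap was not tested. Prox1-positive cells were shallower than the rest, at a median of 31717 against 42675 UMIs in LApc and 30988 against 35463 in LApcL.

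Axin2, a feedback inhibitor and general Wnt target, was found in most Apc-deleted cells. Lef1 was seen in 47.8% of Axin2-positive LApc cells and in 15.2% of the 158 without, and in LApcL in 37.0% and in 17.8% of the 202 without. Lgr5, the stem cell receptor, separated Lef1 less, with 41.7% of positive and 46.5% of other cells in LApc and 36.2% and 33.6% in LApcL. The order by Lgr5 thus differed between the libraries and the gaps were small. Tcf7l1 was found in 1.88% of Lgr5-positive LApc cells and in 4.76% of the others, and in LApcL in 7.24% and 7.81%.

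Other splits rested on fewer cells. Npy, a neuropeptide gene, was found in no LApcL cell and in 317 LApc cells, of which 52.4% had Lef1 and 40.1% had Tcf7, against 44.2% and 26.1% of the others. Muc2, the goblet cell mucin, was found in 76 LApcL cells, of which 72.4% had Tcf7l2 and 23.7% had Lef1, against 57.8% and 35.4% of the others. The 63 Muc2-positive LApc cells did not show this, with Tcf7l2 in 47.6% and Lef1 in 44.4%, against 53.7% and 45.4% of the others. In WT, Tcf7 was at 7.09 CPM in Lgr5-positive cells and 3.23 CPM in the others, at 5.85 and 2.80 CPM by Mki67, and at 6.32 and 3.14 CPM by Axin2. WT Tcf7l2 was at 68.1 CPM in Fabp1-positive cells and 55.7 CPM in the others, and at 73.0 and 63.6 CPM by Axin2. In WT, the CPM of Tcf7 was thus higher beside the stem, cycling and Wnt markers, and that of Tcf7l2 beside both the enterocyte marker and Axin2. At equal depth Tcf7 was found in 6.09% of Lgr5-positive cells and 2.745% of the others. The shares were 3.47% and 2.94% by Mki67, and 5.99% and 2.59% by Axin2. The intervals of these shares overlapped for each marker, as did those of Tcf7l2 by Fabp1 and by Axin2.

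Each library was clustered on its own, with the 4 members left out of the genes used. Clusters are given by number, with a cell type name where 3 or more markers fixed for it were found and its leading genes fitted it, and the levels are descriptions without a test. In WT cluster 5 (90 cells, led by Olfm4, Itln1 and the replication gene Mcm6) had 7.49 CPM of Tcf7 and the proliferating-like cluster 3 had 5.75 CPM, against 3.60 CPM in the library. Lef1 was highest in WT cluster 0, led by Eno3 and Cltrn, at 1.99 CPM, which held 59.6% of the few Lef1 UMIs, and at the finer resolution of 1 the highest WT cluster had 3.14 CPM. Tcf7l2 was at 48.9 CPM in cluster 3. No WT cluster of at least 30 cells reached the Lef1 level of any LApc cluster of that size. The lowest of those LApc clusters had 33.9 CPM, and 11.3 CPM at the resolution of 1.

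In LApc, Lef1 was highest in cluster 1 (485 cells, led by Prss56, Vim and Apcdd1), at 131.5 CPM, and this cluster held 38.2% of the library's Lef1 UMIs. Cluster 4 (202 cells, led by Mt3, Mt4 and Cxcl14) had 117 CPM of Lef1 and the highest levels of Tcf7, at 100.9 CPM, and of Tcf7l1, at 10.9 CPM. Cluster 3 (248 cells, Chgb and Sct) had 96.4 CPM and cluster 5 (187 cells, Npy) 92.8 CPM of Lef1. Lower levels were found in cluster 0 (526 cells, Ms4a10 and Plac8) at 40.2 CPM, in cluster 6 (73 cells, Gm26917 and Lars2) at 37.7 CPM, in the proliferating-like cluster 2 (411 cells) at 33.9 CPM and in the Paneth-like cluster 7 (29 cells) at 30.1 CPM. Tcf7 was at 63.8 CPM in cluster 1 and lowest, at 17.9 CPM, in cluster 0. Tcf7l2 followed another order, with 111 CPM (103.9 to 118.7) in cluster 3 and 121.5 CPM (99.4 to 147.1) in the Paneth-like cluster, whose 29 cells are under the minimum of 30 set for the plot and for likeness. These intervals overlapped.

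In LApcL, Lef1 was highest in cluster 0 (403 cells, led by Egln3 and Ndrg1), at 95.2 CPM, with 36.4% of the library's Lef1 UMIs. Cluster 5 (122 cells, Gm26917 and Lars2) was next at 74.1 CPM. Cluster 3 (295 cells, Sct and Ifitm1) had 66.4 CPM of Lef1, the highest Tcf7l1 of the library at 15.8 CPM, and 147 CPM of Tcf7l2. Cluster 1 (365 cells, Ly6g, Gpx2 and Ly6a) had 27.1 CPM of Lef1, cluster 2 (331 cells, Slfn9 and Uhrf1) 32.5 CPM and the proliferating-like cluster 4 (155 cells) 39.5 CPM. The unnamed cluster 8 (81 cells, Defa21 and Defa24) had 36.1 CPM of Lef1 and 151.8 CPM of Tcf7l2 (136.1 to 168.8), which overlapped that of cluster 3 (138.9 to 156.1). Among Mki67-positive cells Lef1 was lower in LApcL (37.6 CPM) than in LApc (42.8 CPM), and the intervals did not overlap. The proliferating-like clusters gave no order, at 33.9 CPM for LApc cluster 2 and 39.5 CPM for LApcL cluster 4. The interval of the first ended at 36.3 CPM, above the start of the second at 35.7 CPM. Whether the unnamed LApcL cluster 2, led by Slfn9 and Uhrf1, also holds cycling cells was not tested. Tcf7 varied less than in LApc, from 17.2 CPM in cluster 7 to 33.3 CPM in cluster 6. In both libraries the cluster led by defensin or Paneth genes had a Lef1 level below that of its library and a Tcf7l2 level above it.

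**Figure D5:**
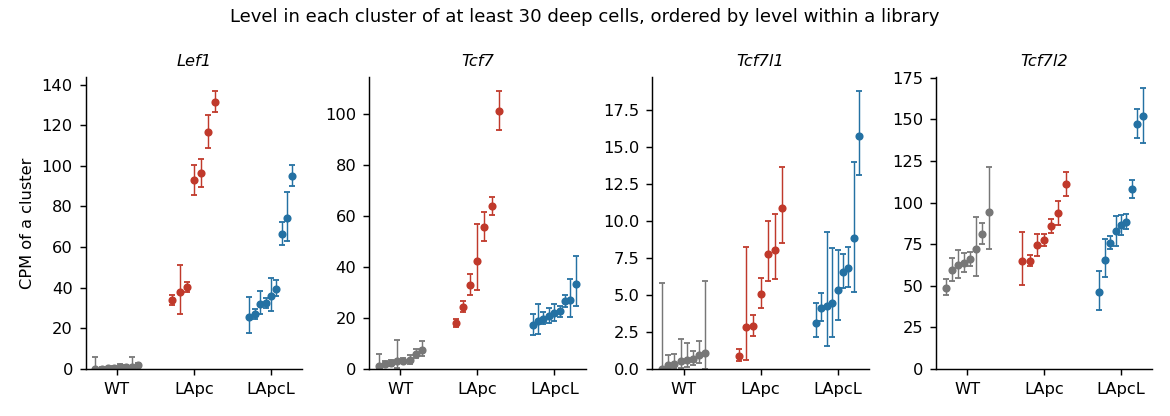
Level of each member in the clusters of the deep barcodes of each library, in CPM on linear axes from 0, with 1 point per cluster of at least 30 cells, ordered by level within a library, and exact 95% Poisson intervals as bars. Lef1 reaches 131.5 CPM in LApc cluster 1 and 95.2 CPM in LApcL cluster 0 and stays at or below 1.99 CPM in the WT clusters drawn, and Tcf7l2 lies between 46.1 and 151.8 CPM in every cluster drawn.

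Over the 24 deep clusters of at least 30 cells, the pattern of each member was compared with those of 11594 genes by Pearson's r of log2 CPM + 1. The points come from 3 libraries, so differences between libraries drive r, and no p is given. Most like Lef1 were Rbms3, an RNA-binding protein (0.986), Irx5, a homeobox factor (0.981) and Ifitm1, a membrane protein (0.978). Most like Tcf7 were Nkd1 (0.959) and Notum (0.950), both secreted or cytoplasmic Wnt inhibitors, and Cyba (0.953), an oxidase subunit. Most like Tcf7l1 were H2afy2, a macroH2A histone (0.939), Phyhd1 (0.929) and Ttc1 (0.926). Tcf7l2 had weaker partners, Atxn1 (0.807), Liph (0.806) and Tmub2 (0.799). Within the family, Lef1 correlated with Tcf7 at 0.921, with Tcf7l1 at 0.890 and with Tcf7l2 at 0.422.

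The shared barcodes had another family pattern. Tcf7l1 was at 69.6, 61.4 and 64.6 CPM in the WT, LApc and LApcL files and Tcf7l2 at 92.2, 98.6 and 101 CPM. Tcf7 was at 2.44, 2.88 and 3.82 CPM, and Lef1 at 0.611, 0.540 and 0.831 CPM from 5, 3 and 5 UMIs. Tcf7l1 gave 42.2%, 37.6% and 38.0% of the family's UMIs there, against at most 3.72% in deep barcodes. At 500 UMIs a Tcf7l1 UMI was found in 3.47%, 2.85% and 2.94% of shared barcodes, whereas deep barcodes at that depth would give 0.0283%, 0.24% and 0.396%. The values of the 3 files are near each other, but they come from the same barcodes and are not replicates.

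The same barcode was also compared across the files, without thinning. Of the 3195 shared barcodes, 771 (24.1%) had a Tcf7l1 UMI in at least 1 file, 222 of them in 2 files and 77 in all 3, where the product of the shares gives 5.16. For Tcf7l2 1038 barcodes (32.5%) were positive, 310 in 2 files and 132 in all 3, against a product of 15. Lef1 was found in 10 barcodes and Tcf7 in 37, of which 1 and 3 were positive in all 3 files. The depth of a barcode goes with its depth in the other files, which by itself gives numbers above the product, and most positive barcodes were positive in 1 file only, 472 for Tcf7l1 and 596 for Tcf7l2.

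With the 3 files summed, the shared barcodes fell into clusters that differed in Tcf7l1. It was at 67.0 CPM in cluster 0 (1331 barcodes, Igfbp3, Rgcc and Gpihbp1), 50.6 CPM in the high endothelial venule-like cluster 1 (526 barcodes), 91.4 CPM in cluster 5 (Selp and Vwf) and 108.7 CPM in the lymphatic endothelial-like cluster 3 (337 barcodes, Marco and Lyve1). Cluster 9, led by Col3a1 and the mural genes Rgs5 and Acta2, had 123.0 CPM in only 24 barcodes. Cluster 2 (407 barcodes, Ackr4) had 57.0 CPM. Levels below all of these were found in cluster 4 (177 barcodes, Madcam1) at 43.7 CPM, cluster 7 at 41.4 CPM, cluster 6 at 38.6 CPM and cluster 8 at 12.2 CPM. Tcf7l2 ran from 73.2 to 133.9 CPM over the clusters. By Prox1, which marks lymphatic endothelium, Tcf7l1 was at 69.0 CPM in positive and 63.4 CPM in other shared barcodes, and Tcf7l2 at 92.8 and 99.6 CPM. Lef1 gave too few UMIs in shared barcodes for such a split.

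The proteins that Tcf and Lef factors work with were measured as a list of 21 nuclear partners, counted past 2-fold without a test. In LApc against WT 10 were higher and 1 lower, with a median log2 ratio of 0.56 beside 0.31 for all genes. The highest were Nlk, a kinase that phosphorylates Tcf and Lef proteins (2.22), and Bcl9l, the adaptor between β-catenin and Pygopus (1.70). The lowest were Tnik, a kinase of the Tcf7l2 and β-catenin complex (-1.79), and the corepressor Tle4 (-0.71). Among all genes 19.6% were higher and 8.13% lower.

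In LApcL against LApc 0 of the 21 partners were 2-fold higher, beside 1.32% of all genes, and 2 were lower, beside 3.92%. These were Nlk (-1.29) and Pygo1, a reader of methylated histone H3 (-1.07). Pygo1 was near the pseudocount of 1 CPM, with 21 UMIs in LApcL (0.261 CPM) and 150 in LApc (1.65 CPM). Its call as higher in LApc against WT rests on 3 UMIs in WT. The median was 0.00, equal to that of all genes to 2 decimals. The highest were the corepressor Tle3 (0.35) and Ctnnbip1, an inhibitor of β-catenin binding (0.34). In LApcL against WT 8 were higher, beside 20.9% of all genes, and 1 lower, beside 9.26%, with a median of 0.50 beside 0.29. In that comparison Bcl9l (2.01) and the histone deacetylase Hdac1 (1.71) were highest and Tnik (-2.23) and Tle1 (-0.91) lowest.

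The second list held 16 known target genes of Tcf and Lef factors, many of them established in Apc-mutant intestine, so its direction against WT is no independent evidence. In LApc against WT 14 of 16 were higher, beside 19.6% of all genes, and 0 lower, beside 8.13%, with a median of 3.08 beside 0.31. Nkd1 (8.59) and the secreted Wnt deacylase Notum (7.77) were highest, and Ephb2, a crypt guidance receptor (0.56), and Myc (0.65) lowest. In LApcL against WT 15 of 16 were higher, beside 20.9% of all genes, and 0 lower, beside 9.26%, with a median of 3.03 beside 0.29. The 2 highest and 2 lowest were Nkd1 (7.04), Notum (5.74), Ephb2 (1.13) and Myc (0.87). The targets thus stood high in both libraries, with Lef1 at 72.0 CPM in the one and 47.8 CPM in the other.

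Between the Apc-deleted libraries the targets split. In LApcL against LApc 1 of 16 was more than 2-fold higher, beside 1.32% of all genes, the stem cell receptor Lgr5 (1.35), followed by the stem cell factor Ascl2 (0.59). Past 2-fold lower were 4 of 16, Notum (-2.03), Nkd1 (-1.56), Prox1 (-1.48) and the receptor Ephb3 (-1.25), beside 3.92% of all genes. The median of the list was 0.06.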

How the data were processed

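The authors ran 10x Chromium 3′ libraries (kit v2 or v3, not given per library) and deposited, for each library, raw counts of UMIs per gene and barcode on mm10. The counts were made with Cell Ranger 6.0.1 per the file headers and 2.1.1 per the submitters' processing notes. The organoids were dissociated with trypsin and filtered. The labels speak of sorted cells without giving a gate, and the methods give a gate for epithelial cells of the mice, not for the organoids.

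From these counts, UMIs of a gene were summed over barcodes and scaled to CPM, with a pseudocount of 1 CPM for log2 ratios. Genes with at least 10 UMIs in 1 of the 2 libraries were compared, and 2-fold was the limit for a call. With 1 library per group there was no test. Intervals were Poisson, Clopper-Pearson or conditional binomial. For shares, each barcode was thinned without replacement to 10000 (deep) or 500 (shared) UMIs. Doublets were kept. An alternative removed those ranked highest by Scrublet (scanpy 1.11.5) at 0.8% per 1000 barcodes, since its own threshold marked 9, 3 and 7. Clustering used 2000 variable genes, 20 components, 20 neighbours and Leiden at 0.5 (igraph 0.11.9).

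The members and lists were chosen with earlier results of these data known. Named genes were the members, the 2 highest and 2 lowest of each pathway list in each comparison, the 3 genes most like each member, and the markers. Other depths, mitochondrial limits, scalings, pseudocounts, gene minimums and a resolution of 1 were tried. The setting with all barcodes of 1 library was added after the data were seen. Code (Python 3.11.15, scipy 1.17.1) was tested on simulated data. No column of the deposited matrices was labelled as another sample, but whose cells the shared barcodes stand for is not known.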

Additional observations from a re-analysis of the deposited data

Results flagged for a closer look

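Barcodes outside both populations were those found in 2 libraries, and those found in 1 library with under 10000 UMIs or over 20% mitochondrial UMIs. In LApc and LApcL they held Lef1, Tcf7 and Tcf7l1 above the WT level of the same kind of barcode. They were not used in the comparisons. In LApc they had 40.05 CPM of Lef1, 28.78 CPM of Tcf7 and 3.609 CPM of Tcf7l1, against 0.565, 3.22 and 0.399 CPM in WT. In LApcL they had 59.18 CPM of Lef1, 22.91 CPM of Tcf7 and 8.029 CPM of Tcf7l1. The order of LApc and LApcL among them was, in sum, that of the deep barcodes for Tcf7 and Tcf7l1 and the opposite for Lef1; for Tcf7 it held in 2 and for Tcf7l1 in 3 of the 4 classes found in 1 library. No replicate library was analysed here, and the difference in order was not tested.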

How the results depend on the processing

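Each of the 12 log2 ratios was recomputed under 13 alternatives. Of the 156 values, 116 moved by no more than counting error, 38 moved by more with the same sign, and 2 changed sign. Both were Tcf7l2 in LApc against WT, main value 0.30, which was -0.143 with median-of-ratios factors and -0.138 with all barcodes found in 1 library, the setting added after the data were seen; the cause was not tested. The number of members past 2-fold stayed at 3, 0 and 3 in the 3 comparisons except with a pseudocount of 10 CPM, where Tcf7l1 lost its call and it was 2 in both comparisons with WT. Lef1 in LApc against WT ranged from 2.90 to 6.09 with pseudocounts of 10 and 0.1 CPM, and in LApcL against LApc from -0.70 to -0.37 over all alternatives. Thinned to 20000 UMIs, Lef1 was found in 1.56%, 61.2% and 53.6% of cells, so shares depend on depth while their order did not. Tcf7l1 and Lef1 rest on 27 and 47 UMIs in WT. With a minimum of 5000 UMIs, Tcf7l2 moved to 0.20 in LApc against WT and to 0.41 in LApcL against WT. With 1 library per group, none of these ranges covers the spread between mice or cultures. No paired analysis was possible because each group had 1 library and no test was run.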
